A study of Mus musculus with 15 samples.

Results

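DNA replication licensing and fork genes are described here across 5 conditions of adipogenesis in mouse embryonic fibroblasts (MEFs). The 45 genes were listed by name, by their known role in origin licensing, in the replisome or in nucleotide supply, and none was chosen by a measured value. All 45 were found by symbol among the 46603 gene IDs of the RNA-Seq count tables, and all 45 were among the 15997 genes with enough counts to be tested. By the labels, the cells were wild-type BALB/c MEFs from embryos of 10.5 days, kept in DMEM with 10% FBS. The study's introduction describes MEFs in general from another strain and embryo age, and its methods give neither. MEFD0 was sampled at day 0 before treatment. MEFD3min and MEFD5min were left untreated to day 3 and day 5. MEFD3plu was treated to day 3 with rosiglitazone at 10 μM, dexamethasone at 1 μM, insulin at 10 μg/mL and IBMX at 0.5 mM, a mixture that induces fat cell formation, and induction began at confluency. MEFD5plu received the same treatment for 3 days and then growth medium without these agents until day 5, so that it was formerly treated at sampling. Whether untreated dishes also received fresh medium at day 3, and how many embryos gave the cells, is not given in the sources used here.

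Before a cell copies its DNA, the origin recognition complex (ORC) binds origins, and Cdc6 and Cdt1 load the ring-shaped MCM helicase onto them, a step called licensing that geminin blocks. In S phase the kinase of Cdc7 and Dbf4 activates the helicase, Cdc45 and the GINS complex join MCM as the working CMG helicase, and polymerases, the sliding clamp PCNA, its loader RFC, single strand binding RPA and the joining enzymes copy both strands. Many of these genes are transcribed under control of E2F factors and are low in resting cells, while several ORC subunits are made throughout the cell cycle. Clonal expansion before terminal differentiation is a known feature of preadipocyte lines given this kind of mixture.

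Each condition had 3 samples, numbered 1, 3 and 4, with 24030558 to 37281126 counted reads per sample. The labels do not say that the samples were separate cultures, so p-values measure only the spread between these samples. A set of 8 fibroblast markers summed to 3766 to 5694 CPM, counts scaled to the effective library size, in MEFD0. On day 3 they summed to 19216 to 31031 CPM untreated and 10607 to 11968 treated, and on day 5 to 8007 to 10159 and 6334 to 8538. Of these 8, 5 were higher and 2 lower in MEFD3min than in MEFD0, and 1 was higher and 6 lower in MEFD3plu than in MEFD3min. The 8 adipocyte markers summed to 42.7 to 65.5 CPM in the day 0 and untreated samples and to 9563 to 13257 CPM in the treated ones, and all 8 were higher with treatment on both days. The fibroblast sums did not overlap between the groups compared below, except MEFD5min and MEFD5plu. The adipocyte sums did not overlap between treated samples and untreated or day 0 samples, and did overlap between MEFD3plu and MEFD5plu. The part of these marker levels in the comparisons was not tested. Markers of macrophages, endothelium, epithelium, muscle, neural and erythroid cells summed to at most 13.3 CPM per list. Libraries were made from bulk RNA, in which fewer cells in S phase and less RNA per cell cannot be told apart.

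Replication genes were at their highest at day 0, lowest on day 3 with or without treatment, and partly back on day 5, with less recovery in formerly treated cells. The 45 genes summed to 4444 ± 89.0 CPM in MEFD0 (mean ± SD, n = 3). On day 3 they summed to 1345 ± 129 CPM untreated and 1431 ± 57.7 treated, and on day 5 to 3244 ± 101 untreated and 2394 ± 18.9 formerly treated. The day 3 groups overlapped, at 1231 to 1486 CPM untreated and 1398 to 1498 CPM treated, and no other pair of groups did. The median gene stood at 26.7% of its MEFD0 level untreated and 25.6% treated on day 3, and at 73.4% and 53.9% on day 5. In 35 of the 45 genes the group means ran in the order MEFD0, MEFD5min, MEFD5plu and then both day 3 groups. Among these 35, MEFD0 and MEFD5min differed at an adjusted p under 0.05 in 32, MEFD5min and MEFD5plu in 27, MEFD5plu and the next group in 33, and the pair of day 3 groups in 14. The exceptions were Orc2, Orc3, Orc4, Orc5, Cdt1, Cdc7, Gins4, Rfc1, Rfc4 and Rpa1.

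**Figure D1:**
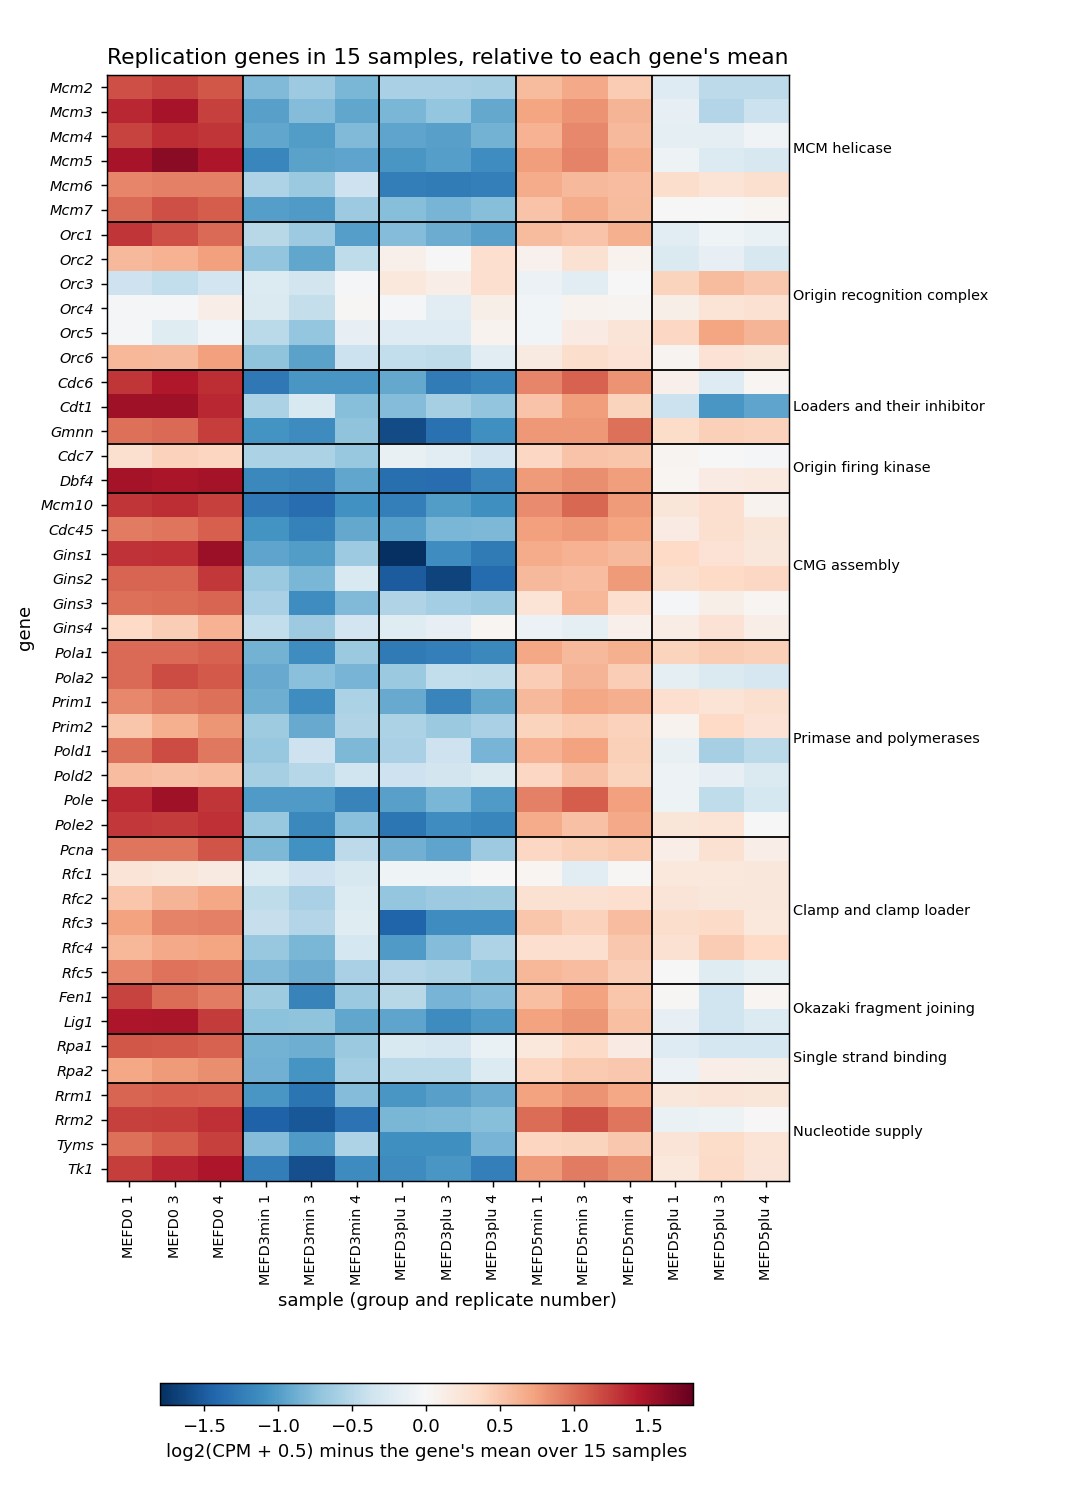
Level of the 45 replication genes (rows, by role) in each of the 15 samples (columns), as log2(CPM + 0.5) minus the mean of that gene over the samples; red is above and blue below the mean. MEFD0 columns are red in nearly every row and both day 3 blocks are mostly blue, while Orc3, Orc4, Orc5 and Rfc1 stay pale at day 0.

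Changes were tested with edgeR's quasi-likelihood test in a single fit of all 15 samples, and a gene was called at a Benjamini-Hochberg adjusted p under 0.05 over all 15997 genes. From MEFD0 to MEFD3min, 43 of the 45 genes fell and none rose, where 60% of all genes tested were called, 28.6% lower and 31.4% higher. The median log2 difference was -1.91 over the 45 genes and 0.04 over all genes tested. From MEFD0 to MEFD3plu, 42 fell and 1, Orc3, rose (63.5% of all genes called, 29.7% lower and 33.9% higher), with a median of -1.96. Both comparisons share the MEFD0 samples. From MEFD3min to MEFD5min, 43 rose and none fell (42.8% of all genes called, 21.3% higher and 21.5% lower), with a median of 1.32. Between the treated days, MEFD5plu against MEFD3plu, 39 rose and 1, Orc2, fell (63% of all genes called, 33.8% higher and 29.2% lower), with a median of 0.80. MEFD5min was still below MEFD0 in 37 genes and above it in 1, Orc3 (46.4% of all genes called, 21.9% lower and 24.5% higher), with a median of -0.45. Of these 38 calls, 9 were lost on leaving out at least 1 sample. Orc3 was lost without MEFD5min replicate 4 (adjusted p = 0.104), Orc6 without MEFD5min replicate 1, Rfc1 without MEFD5min replicate 3 and Pold1 without MEFD0 replicate 3 or MEFD5min replicate 4. Prim1 was lost without any of the 6 samples, Fen1 without any but MEFD5min replicate 3, and Cdc45, Rpa2 and Rrm2 without any of 3 or 4 samples (adjusted p of the 9 genes where lost, 0.0504 to 0.156).

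With treatment, the genes split on day 3 and moved mostly one way on day 5. In MEFD3plu/MEFD3min, 10 of the 45 genes were higher, 10 were lower and 25 were not called, which is 44.4% called against 56.1% of all genes tested (28% higher and 28% lower). Their median log2 difference was 0.09. In MEFD5plu/MEFD5min, 31 were lower and 3 higher, against 50.5% of all genes called, 24.2% lower and 26.3% higher, and the median was -0.48. These comparisons share no samples. The treatment by day interaction, the day 3 difference minus the day 5 difference, was positive in 26 genes and negative in 3 (48.5% of all genes called, 22.6% positive and 25.8% negative), with a median of 0.59. Of the 10 genes higher on day 3, 6 were lower on day 5, and these were Orc2, Cdc7, Pola2, Rpa1, Rpa2 and Rrm2. All 6 passed the interaction test, which subtracts these same differences and so adds no separate support. The share of all genes tested that were higher on day 3 and lower on day 5 was not counted. Of the 10 lower on day 3, 6 were lower on day 5 as well, and none was higher. Without a call on day 3 and lower on day 5 were 19 genes, 5 of the MCM subunits among them, and 18 of the 19 passed the interaction test. Treated and untreated samples did not overlap in 17 of the 45 genes on day 3 and in 43 on day 5, against 56.8% and 62.1% of all genes tested. With scaling by total counts alone, 38 of the 45 genes were lower and 1 higher on day 5, and of all genes called on that day 37% were higher in place of 52.1%.

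**Figure D2:**
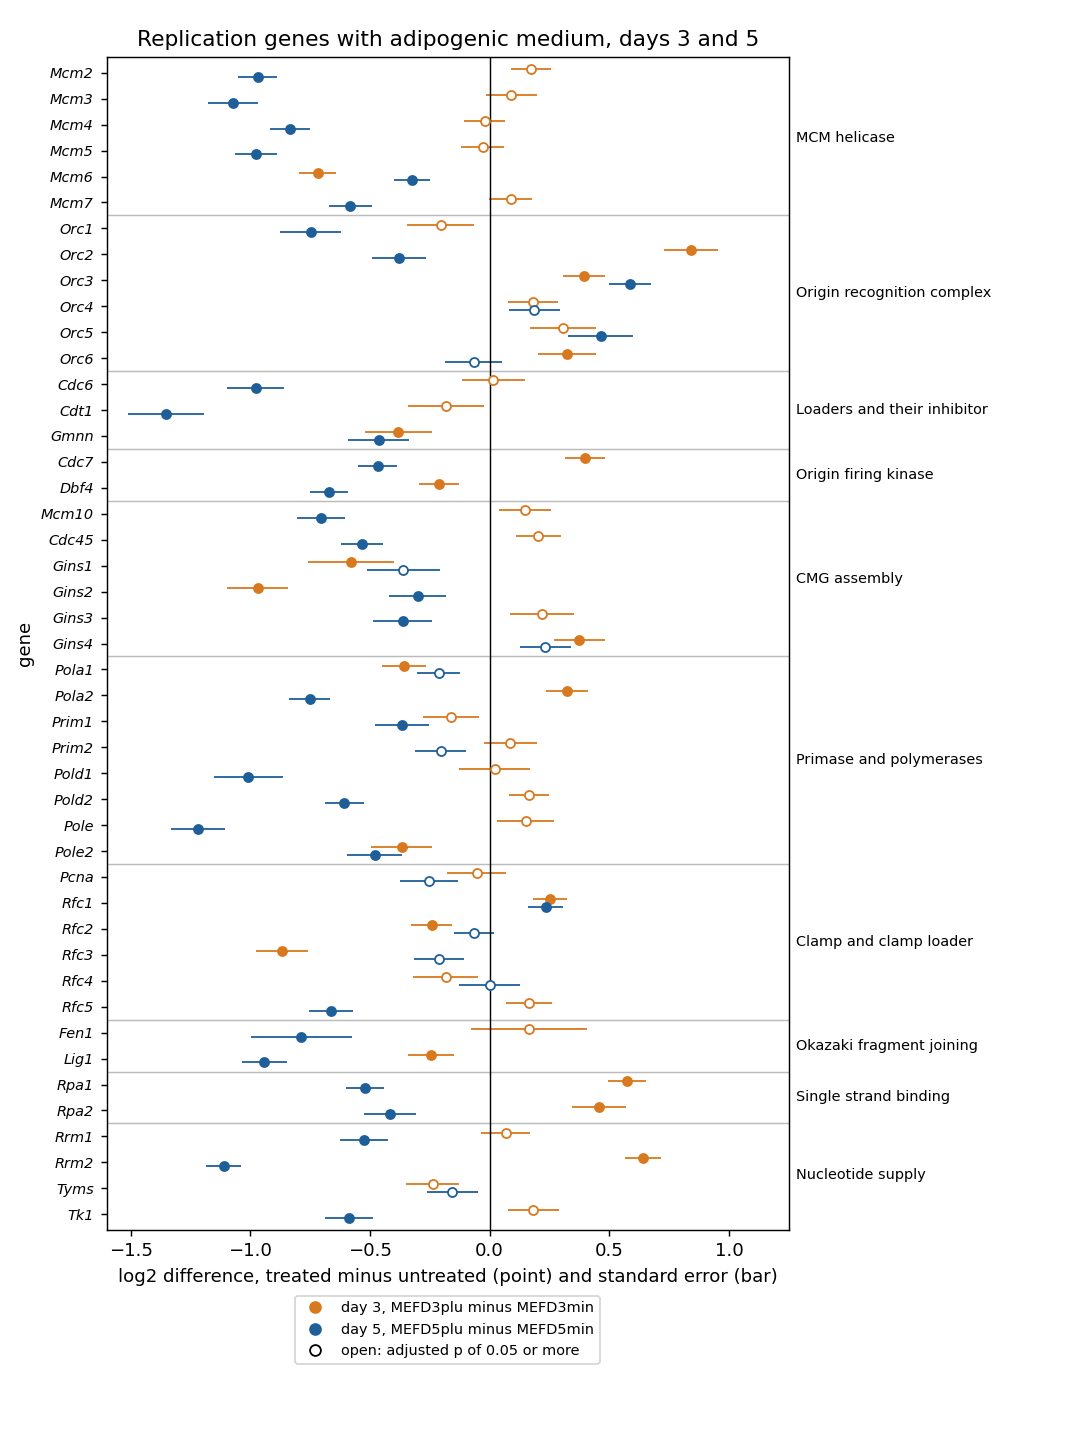
Log2 difference of treated minus untreated cells (x axis) for each of the 45 replication genes (y axis, by role), with orange points for day 3, blue points for day 5 and bars for the standard error; filled points were called. Blue points lie left of 0 for most genes, down to -1.35 for Cdt1, whereas orange points lie on both sides, from 0.84 for Orc2 to -0.97 for Gins2.

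Day 3 differences were small, and several calls, and several genes left without a call, rested on few samples. Under every alternative setting tried, 12 of the 20 kept their call, 8 higher (Orc2, Orc3, Cdc7, Gins4, Pola2, Rpa1, Rpa2 and Rrm2) and 4 lower (Mcm6, Gins2, Pola1 and Rfc3). Leaving out MEFD3min replicate 4 or MEFD3plu replicate 1 ended the calls of Gmnn, Dbf4, Gins1, Pole2 and Rfc2, and leaving out MEFD3plu replicate 3 those of Gmnn, Dbf4, Rfc2 and Lig1. Without MEFD3min replicate 1, Orc6, Pole2 and Lig1 lost theirs, and without MEFD3min replicate 3 or MEFD3plu replicate 4, Orc6 and Lig1 did. The adjusted p of these lost calls lay between 0.0518 for Gins1 and 0.209 for Dbf4. On day 5, 29 of the 34 kept their call throughout, 28 lower and 1, Orc3, higher. With the replicate number as a block, Orc5 (log2 difference 0.31, adjusted p = 0.0248) and Tyms (-0.24, adjusted p = 0.0375) were called on day 3 too. In at least 1 alternative, 13 genes gained a call on day 3 and 8 lost theirs, and on day 5 8 gained and 5 lost. Leaving out MEFD3min replicate 4 alone added Mcm7, Orc4, Orc5, Cdc45, Pold2, Rfc5, Rrm1 and Tk1 as higher. It also added Orc1 as lower (adjusted p of these genes, 0.00503 to 0.0455).

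To show what these genes carry at their start sites, the 250 bases before and 50 after the RefSeq start (GRCm38.p6) were searched on both strands. A window was found for 37 of the 45 genes, and Mcm4, Gmnn, Gins1, Gins2, Gins4, Prim2, Pole and Rfc2 were not among them. E2F-like octamers were spelled TTTGGCGC, TTTCCCGC, TTTCGCGC, TTTGCCGC or GGCGGGAA, of which TTTCCCGC and GGCGGGAA can overlap on opposite strands. They were present in 19 of the 37 windows, or 51.4% (exact 95% interval 34.4 to 68.1%), and in 4.46% of the windows of all 27025 genes. CCAAT was present in 22, or 59.5% (42.1 to 75.2%), against 41.1% of all genes. TTTGAA, the CHR element of G2/M genes, was present in 7, or 18.9% (7.96 to 35.2%), against 20.2%. From MEFD0 to MEFD3min the median log2 difference was -1.92 for the 19 genes with an octamer and -1.91 for the 18 without. The medians were -0.03 with and 0.19 without an octamer in MEFD3plu/MEFD3min, and -0.48 and -0.56 in MEFD5plu/MEFD5min, given as a description with no test.

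Promoters of 5 genes were picked by hand and not by a rule. Mcm3 and Mcm5 are typical MCM subunits, Mcm6 has its own day 3 change, Rrm2 has the widest interaction, and Orc3 did not fall. The 5 promoters are printed below. Each is the 200 bases before the RefSeq start, 5′ to 3′ on the gene's strand in GRCm38.p6, with E2F octamers and CCAAT of either strand in capitals. They lie at chr1:20820313-20820512 (minus strand), chr8:75109309-75109508 (plus strand), chr1:128359706-128359905 (minus strand), chr12:24708054-24708253 (plus strand) and chr4:34614943-34615142 (minus strand), in the order given.
Mcm3: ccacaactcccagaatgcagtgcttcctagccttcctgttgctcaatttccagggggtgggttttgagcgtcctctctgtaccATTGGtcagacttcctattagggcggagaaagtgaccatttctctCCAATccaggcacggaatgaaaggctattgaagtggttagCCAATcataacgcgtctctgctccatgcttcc
Mcm5: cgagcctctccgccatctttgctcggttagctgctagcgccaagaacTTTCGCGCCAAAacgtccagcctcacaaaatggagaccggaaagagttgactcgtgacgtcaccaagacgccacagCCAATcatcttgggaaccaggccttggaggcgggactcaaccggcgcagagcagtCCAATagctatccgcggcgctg
Mcm6: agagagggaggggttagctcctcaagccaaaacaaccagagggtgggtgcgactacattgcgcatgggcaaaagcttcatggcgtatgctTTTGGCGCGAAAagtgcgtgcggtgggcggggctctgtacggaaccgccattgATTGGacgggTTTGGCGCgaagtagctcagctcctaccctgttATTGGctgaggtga
Rrm2: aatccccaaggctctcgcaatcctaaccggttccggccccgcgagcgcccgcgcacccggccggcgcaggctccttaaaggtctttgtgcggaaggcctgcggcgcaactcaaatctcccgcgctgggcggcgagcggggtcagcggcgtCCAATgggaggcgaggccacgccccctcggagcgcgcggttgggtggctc
Orc3: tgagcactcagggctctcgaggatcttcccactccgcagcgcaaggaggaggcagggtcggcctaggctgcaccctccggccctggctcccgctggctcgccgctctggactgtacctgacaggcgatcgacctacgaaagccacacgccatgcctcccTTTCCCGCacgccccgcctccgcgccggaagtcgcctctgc
In the printed bases Mcm6 holds 3 octamer matches and Mcm5 holds 2, some overlapping on opposite strands, and each has 2 CCAAT boxes. Mcm3 has 3 CCAAT boxes, and its octamer lies in the searched window outside the printed bases. Rrm2 has 1 CCAAT box and no octamer in the whole window. Orc3, with a level that did not fall after day 0, has 1 octamer. A match describes letters in this stretch, not binding.

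Mcm2 to Mcm7 encode the 6 subunits of the replicative helicase. All 6 fell from MEFD0 to both day 3 groups, where 28.6% of all genes tested were lower untreated and 29.7% treated. All 6 were then higher in MEFD5min than in MEFD3min (21.3% of all genes). They were also all lower in MEFD5plu than in MEFD5min (24.2% of all genes). On day 3 only Mcm6 was called between treated and untreated cells. Mcm2 was called higher without MEFD3min replicate 3 (0.23, adjusted p = 0.0382) and Mcm7 without MEFD3min replicate 4 (0.22, adjusted p = 0.0222). Mcm3 (ENSMUSG00000041859, chr1:20802968-20820312, minus strand) showed the common course. It stood at 145, 158 and 132 CPM in MEFD0, 28.3, 32.4 and 29.1 in MEFD3min and 31.4, 34.6 and 29.5 in MEFD3plu. On day 5 it reached 92.6, 99.1 and 86.0 CPM untreated and 50.4, 38.8 and 42.8 formerly treated, and these groups did not overlap. The day 3 log2 difference was 0.09 ± 0.11 (SE; adjusted p = 0.488) and the day 5 difference -1.07 ± 0.10 (SE; adjusted p = 2.73e-07), 2.10-fold lower. Day 5 differences of the other subunits were -0.97 for Mcm2, -0.98 for Mcm5, -0.83 for Mcm4, -0.58 for Mcm7 and -0.32 for Mcm6, with adjusted p from 6.45e-08 to 0.00172. Interaction was positive for all but Mcm6. Of the Mcm7 exon bases, 8.7% overlap antisense genes. Of the 50-base stretches of its transcripts, 23.3% are found in other genes on either strand, with the pseudogene Gm5487 holding the most.

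Mcm6 (ENSMUSG00000026355, chr1:128331590-128359664, minus strand) was the MCM subunit with a call on both days. MEFD0 held 247, 251 and 253 CPM, MEFD3min 91.0, 84.5 and 103 and MEFD3plu 56.5, 56.0 and 56.9. All 3 treated day 3 samples were below all 3 untreated ones, with a log2 difference of -0.72 ± 0.08 (SE; adjusted p = 4.04e-07). On day 5 it stood at 215, 202 and 197 CPM untreated and 167, 159 and 164 formerly treated, a difference of -0.32 ± 0.08 (SE; adjusted p = 0.00172), and the interaction was -0.39 ± 0.11 (SE; adjusted p = 0.00582). With scaling by total counts alone the interaction was no longer called (adjusted p = 0.0946). Per exon length, as RPKM, which is CPM per kilobase of exon, Mcm6 was 1.19 ± 0.0537 times the mean of the other 5 subunits in MEFD0 (SD, n = 3). On day 3 the ratio was 2.04 ± 0.151 untreated and 1.20 ± 0.0156 treated. On day 5 it was 1.49 ± 0.132 untreated and 2.15 ± 0.0366 formerly treated. Treated and untreated samples did not overlap on either day, and the order turned, with the higher ratio untreated on day 3 and formerly treated on day 5. This ratio was chosen after the values were seen and is given without a test.

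**Figure D3:**
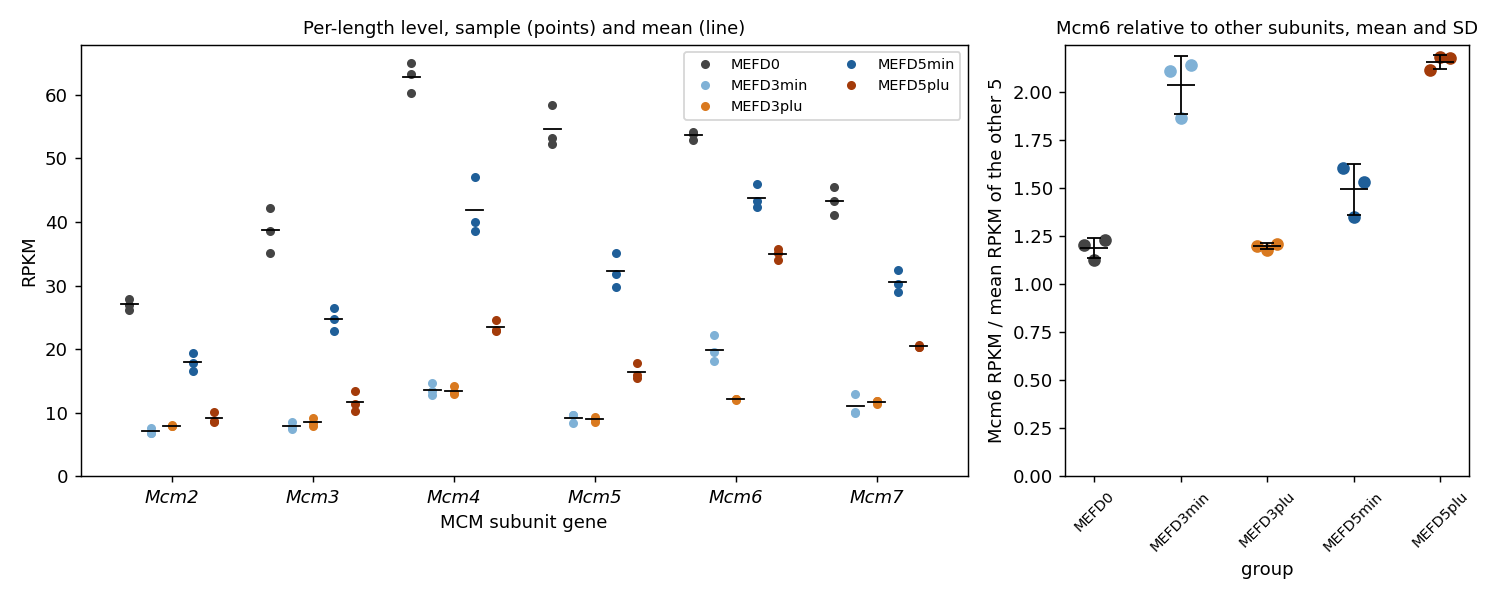
Left, RPKM (y axis) of the 6 MCM subunit genes in each sample, coloured by group, with the mean as a line; right, the RPKM of Mcm6 divided by the mean RPKM of the other 5 subunits in each sample, with mean and SD over 3 samples. The ratio is 1.86 to 2.14 in MEFD3min and 1.18 to 1.21 in MEFD3plu, and 1.35 to 1.60 in MEFD5min and 2.11 to 2.18 in MEFD5plu.

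The 6 ORC genes, whose products bind origins, did not move as a set. Orc1, the subunit known to be made in cycle with E2F, fell to 25.4% ± 5.27 of its MEFD0 level in MEFD3min (SD propagated over both groups, n = 3) and was lower in MEFD5plu than in MEFD5min, at -0.75 ± 0.13 (SE; adjusted p = 0.000127) on the log2 scale. Orc2 and Orc6 fell less, to 39.1% ± 6.94 and 39.9% ± 8.59. Orc4 was called in none of the 8 comparisons, and its group means spanned 1.34-fold. With the replicate block it was called lower in MEFD3min than in MEFD0 (-0.24, adjusted p = 0.0201). The block also called it higher in MEFD5min/MEFD3min (adjusted p = 0.0252) and MEFD5plu/MEFD3plu (0.0167). Without MEFD3min replicate 4 it was called in MEFD3min/MEFD0, MEFD5min/MEFD3min and MEFD3plu/MEFD3min (adjusted p = 0.00348 to 0.0117). Some other settings called Orc4 too, such as total counts alone in MEFD3min/MEFD0 (adjusted p = 0.00314). Orc5 was at 79.1% ± 16.9 in MEFD3min, a fall with an adjusted p of 0.0418 that was lost on leaving out MEFD0 replicate 1 or 4 or MEFD3min replicate 1 or 3 (adjusted p up to 0.178).

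Orc3 (ENSMUSG00000040044, chr4:34570796-34614944, minus strand) was the only gene of the 45 with its lowest mean at day 0. It stood at 70.6, 67.0 and 71.7 CPM in MEFD0, 77.3, 73.0 and 90.3 in MEFD3min and 104, 99.3 and 113 in MEFD3plu. On day 5 it stood at 85.0, 80.0 and 91.6 CPM untreated and 121, 136 and 128 formerly treated, and treated samples were above untreated ones on both days. The log2 differences were 0.39 ± 0.09 (SE; adjusted p = 0.00101) on day 3 and 0.58 ± 0.09 (SE; adjusted p = 3.41e-05) on day 5, which is 1.50-fold. From MEFD0 to MEFD3min its difference of 0.20 was not called (adjusted p = 0.0584), and it was with the replicate block (0.20, adjusted p = 0.0316). Orc5 was higher in MEFD5plu too, by 0.46 ± 0.13 (SE; adjusted p = 0.00869). With total counts alone Orc3 stayed called and Orc5 did not (adjusted p = 0.0506).

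Orc2 (ENSMUSG00000026037, chr1:58462771-58505109) had the widest rise with treatment on day 3. MEFD3min held 23.1, 19.7 and 27.5 CPM and MEFD3plu 40.7, 38.3 and 46.9, without overlap. MEFD5min held 40.2, 46.2 and 39.8 CPM and MEFD5plu 31.7, 34.3 and 31.1, again without overlap and in the other direction. The log2 differences were 0.84 ± 0.11 (SE; adjusted p = 6.89e-06) on day 3, -0.38 ± 0.11 (SE; adjusted p = 0.00981) on day 5 and 1.22 ± 0.16 (SE; adjusted p = 9.28e-06) for the interaction. Without MEFD5min replicate 3 the day 5 call was lost (adjusted p = 0.0517). Orc2 was also the only gene that fell from MEFD3plu to MEFD5plu, at -0.38 ± 0.11 (SE; adjusted p = 0.00765). Of its exon bases 29.8% overlap Nif3l1 on the other strand, and how the authors' counting used strand is not given in the sources used here. Some reads may therefore belong to Nif3l1, or reads of Orc2 may have been left out.

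Among the loaders, Cdt1 (ENSMUSG00000006585, chr8:122568015-122573554), which brings MCM to origins, had the widest fall on day 5. It stood at 75.9, 75.3 and 67.4 CPM in MEFD0, 17.2, 21.4 and 15.1 in MEFD3min and 14.9, 16.9 and 15.6 in MEFD3plu. MEFD5min reached 37.4, 44.0 and 34.4 CPM, whereas MEFD5plu held 19.7, 12.2 and 13.2, within or near the day 3 range. The log2 difference was -0.18 ± 0.16 (SE; adjusted p = 0.35) on day 3 and -1.35 ± 0.16 (SE; adjusted p = 2.46e-06) on day 5, 2.55-fold lower, with an interaction of 1.17 ± 0.22 (SE; adjusted p = 0.000388). Of the 45 genes Cdt1 alone had its lowest mean in MEFD5plu, and from MEFD3plu to MEFD5plu its difference was -0.06 ± 0.16 (SE; adjusted p = 0.742). Cdc6, the other loader, did recover between the treated days, by 1.14 ± 0.13 (SE; adjusted p = 7.1e-07), and remained 1.97-fold below MEFD5min. Gmnn, which encodes geminin and restrains Cdt1, recovered to 61.5% ± 6.80 of day 0 in MEFD5plu, where Cdt1 was at 20.7% ± 5.75.

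Cdc7 and Dbf4 encode the catalytic and activating subunits of the kinase that fires origins. Cdc7 went from 33.3, 36.2 and 35.6 CPM in MEFD0 to 18.0, 18.1 and 16.6 in MEFD3min, and was back at 35.3, 38.7 and 38.6 in MEFD5min. Dbf4 fell further, from 149, 147 and 149 CPM in MEFD0 to 23.2, 22.6 and 27.1 in MEFD3min and 20.2, 20.0 and 22.7 in MEFD3plu. On day 3 the subunits differed in sign, with 0.40 ± 0.08 (SE; adjusted p = 0.000584) for Cdc7 and -0.21 ± 0.08 (SE; adjusted p = 0.0404) for Dbf4 on the log2 scale. The Dbf4 call was lost on leaving out any of 3 samples, without the filter on low counts or with only the samples compared (adjusted p = 0.105 to 0.209). On day 5 both were lower after treatment, at -0.47 and -0.67, and both interactions were positive (0.86 and 0.46).

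Of the genes that build the CMG helicase, Mcm10 and Cdc45 followed most MCM subunits. Mcm10 rose 4.62-fold from MEFD3min to MEFD5min and was lower in MEFD5plu than in MEFD5min, at -0.70 ± 0.10 (SE; adjusted p = 1.99e-05). The 4 GINS subunits, which form a single complex, split on day 3. Gins2 (ENSMUSG00000031821, chr8:120578633-120589304) fell with treatment, from 23.2, 20.6 and 30.6 CPM in MEFD3min to 12.8, 11.3 and 13.9 in MEFD3plu, and the groups did not overlap. Its log2 difference was -0.97 ± 0.13 (SE; adjusted p = 5.34e-06), the widest fall of the 45 genes on that day. On day 5 it stood at 55.9, 54.9 and 63.2 CPM untreated and 45.5, 47.7 and 48.1 formerly treated, -0.30 ± 0.12 (SE; adjusted p = 0.0466), a call that leaving out any of the 6 day 5 samples ended (adjusted p = 0.0536 to 0.118). Gins1 fell with treatment on day 3 as well (-0.58 ± 0.18 (SE; adjusted p = 0.0107)), at only 1.84 to 4.88 CPM in the day 3 samples. The Gins1 call was lost on leaving out either of 2 samples or with only the samples compared (adjusted p = 0.0518 to 0.0783). Gins4 rose by 0.37 ± 0.11 (SE; adjusted p = 0.00615), and Gins3 was not called (0.22 ± 0.13 (SE; adjusted p = 0.172)). Of the Gins2 exon bases 67.3% overlap Gse1 on the other strand. Without the strand setting its counts cannot be told apart from reads of Gse1, and reads of Gins2 may have been left out.

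**Figure D4:**
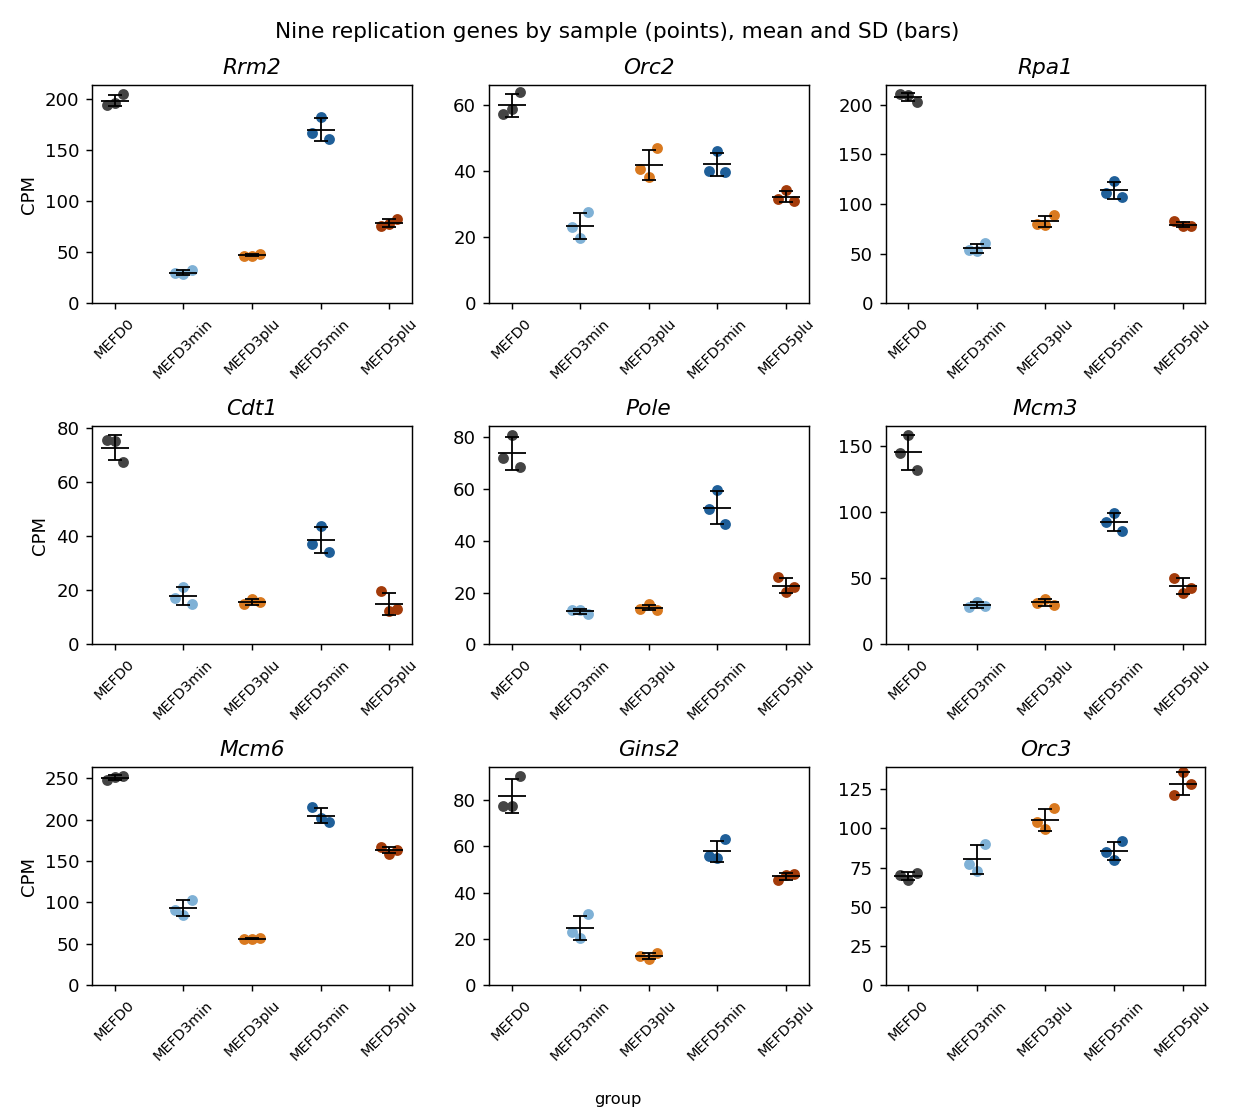
CPM (y axis, from 0) of 9 replication genes in each sample of the 5 groups (points), with mean and SD over 3 samples (bars). Rrm2, Orc2 and Rpa1 lie higher in MEFD3plu than in MEFD3min and lower in MEFD5plu than in MEFD5min, Mcm6 and Gins2 lie lower with treatment on both days, and Orc3 lies higher on both.

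The 8 primase and polymerase genes fell together to day 3 and parted with treatment. In MEFD5plu/MEFD5min 6 of the 8 were lower, against 24.2% of all genes tested, and Pola1 and Prim2 were not called. Pola1 was near the cutoff (-0.21, adjusted p = 0.0554). It was called lower with DESeq2 (adjusted p = 0.0205), its size factors, total counts alone, at least 10 counts in every sample, the block or only the samples compared. Prim2 (-0.20, adjusted p = 0.123) was called lower with total counts alone (adjusted p = 0.00616). Pole (ENSMUSG00000007080, chr5:110286306-110337474), the catalytic subunit of the leading strand polymerase, stood at 71.8, 80.7 and 68.4 CPM in MEFD0 and 13.3, 13.3 and 11.7 in MEFD3min. It stood at 13.8, 15.4 and 13.3 CPM in MEFD3plu, 52.4, 59.5 and 46.5 in MEFD5min and 26.0, 20.1 and 22.0 in MEFD5plu. Day 3 groups overlapped and day 5 groups did not, with log2 differences of 0.15 ± 0.12 (SE; adjusted p = 0.298) and -1.22 ± 0.11 (SE; adjusted p = 1.69e-07), and the interaction was 1.37 ± 0.16 (SE; adjusted p = 3.52e-06). Pole2, its partner subunit, was lower on both days (-0.37 and -0.48), and its interaction of 0.11 was not called (adjusted p = 0.624). The Pole2 call on day 3 was lost on leaving out any of 3 samples or with only the samples compared (adjusted p = 0.0706 to 0.121). Within polymerase alpha, which lays the primers, Pola1 was lower on day 3, at -0.36 ± 0.09 (SE; adjusted p = 0.00327) and Pola2 higher by 0.32 ± 0.09 (SE; adjusted p = 0.00487). Pold1, the catalytic subunit of the lagging strand polymerase, was not called on day 3 and was 2.01-fold lower on day 5 (adjusted p = 2.23e-05).

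Of Pcna and the clamp loader genes, 4 of 6 were not called between formerly treated and untreated cells on day 5, where 50.5% of all genes tested were called. Pcna had the highest per-length level of the 45 genes at day 0, 112 ± 7.76 RPKM (SD, n = 3), and held 32.2 ± 6.98 RPKM untreated and 31.0 ± 3.33 treated on day 3, and 73.8 ± 2.84 and 61.9 ± 4.09 on day 5. It was not called with treatment on day 3 (-0.05 ± 0.12 (SE; adjusted p = 0.735)) or on day 5 (-0.25 ± 0.12 (SE; adjusted p = 0.0918)), where the 95% interval ran from -0.52 to 0.02. With total counts alone Pcna was called lower on day 5 (adjusted p = 0.00367). It was also called lower without the filter on low counts (0.0471), with the replicate block (0.0457) and with only the samples compared (0.0106). Rfc3 was called lower on day 5 with total counts alone (adjusted p = 0.00338), DESeq2 (0.0486) or only the samples compared (0.0441). Rfc2 was called lower with total counts alone (adjusted p = 0.0194). Of the 50-base stretches of its transcripts, 19.1% are found in other genes on either strand, with Pcna-ps2 holding the most. Of the 5 clamp loader subunits, Rfc5 was lower on day 5 (-0.66 ± 0.09 (SE; adjusted p = 1.7e-05)) and Rfc1, the large subunit, was higher (0.23 ± 0.07 (SE; adjusted p = 0.0121)). The Rfc1 call was lost without MEFD5min replicate 3 and with total counts alone (adjusted p = 0.404). On day 3, 3 of the 5 subunits were called, as were 56.1% of all genes tested. Rfc1 was higher (0.25 ± 0.07 (SE; adjusted p = 0.00666)), a call lost without the filter on low counts (adjusted p = 0.0661), and Rfc2 was lower (-0.24 ± 0.09 (SE; adjusted p = 0.0228)). The Rfc2 call was lost on leaving out any of 3 samples, without that filter or with only the samples compared (adjusted p = 0.0543 to 0.142). Rfc3 had the widest difference, from 15.9, 14.7 and 18.3 CPM in MEFD3min to 7.57, 9.56 and 9.56 in MEFD3plu, -0.87 ± 0.11 (SE; adjusted p = 3.36e-06), and its interaction of -0.66 ± 0.15 (SE; adjusted p = 0.00172) was among the 3 negative ones.

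Lig1, the ligase that seals Okazaki fragments, stood at 133, 134 and 116 CPM in MEFD0, 28.8, 29.0 and 25.0 in MEFD3min and 24.6, 21.8 and 23.5 in MEFD3plu. On day 5 it held 79.8, 83.8 and 70.3 CPM untreated and 43.5, 37.5 and 40.7 formerly treated, without overlap, -0.94 ± 0.09 (SE; adjusted p = 3.74e-07). Fen1, the flap nuclease of the same step, was the least abundant gene at 5.80 ± 0.675 CPM in MEFD0, and 84.2% of its exon bases overlap Gm10143 and Tmem258 on the other strand, so that its level, its rank and its differences may hold reads of those genes. Rpa1 (ENSMUSG00000000751, chr11:75298166-75348324), the large subunit of the single strand binding complex, stood at 210.4, 209.7 and 203 CPM in MEFD0, 53.4, 52.6 and 60.6 in MEFD3min and 80.0, 78.9 and 88.8 in MEFD3plu. It stood at 111, 123 and 107 CPM in MEFD5min and 82.8, 77.4 and 77.9 in MEFD5plu, so that treated samples were all above untreated ones on day 3 and all below them on day 5. Its log2 differences were 0.57 ± 0.08 (SE; adjusted p = 1.04e-05) and -0.52 ± 0.08 (SE; adjusted p = 4.26e-05), and those of Rpa2 were 0.46 and -0.42 (adjusted p = 0.00227 and 0.00433). Both interactions were called, at 1.09 and 0.87.

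Rrm2 (ENSMUSG00000020649, chr12:24708241-24714146, plus strand), the cell cycle regulated subunit of ribonucleotide reductase, had the widest interaction of the 45 genes. It stood at 194, 196 and 205 CPM in MEFD0, 29.9, 28.4 and 32.4 in MEFD3min and 46.5, 46.6 and 48.3 in MEFD3plu. MEFD5min reached 167, 183 and 161 CPM and MEFD5plu 76.0, 77.4 and 82.6. Treated samples were above untreated ones on day 3, by 0.64 ± 0.08 (SE; adjusted p = 1.42e-06) or 1.56-fold, and below them on day 5, at -1.11 ± 0.07 (SE; adjusted p = 2.75e-09) or 2.16-fold, with an interaction of 1.75 ± 0.11 (SE; adjusted p = 1.03e-09). Rrm1, the other subunit of the enzyme, was not called on day 3 (0.07 ± 0.10 (SE; adjusted p = 0.598)) and was lower on day 5, at -0.52 ± 0.10 (SE; adjusted p = 0.000334). The thymidine kinase gene Tk1 fell to 15.4% ± 2.70 of its day 0 level in MEFD3min, next to Rrm2 at 15.2% ± 1.12, and was lower in MEFD5plu than in MEFD5min, at -0.59 ± 0.10 (SE; adjusted p = 0.000136). Tyms, which makes thymidylate, was called on neither day (-0.24 ± 0.11 (SE; adjusted p = 0.0804) and -0.16 ± 0.11 (SE; adjusted p = 0.244)).

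**Figure D5:**
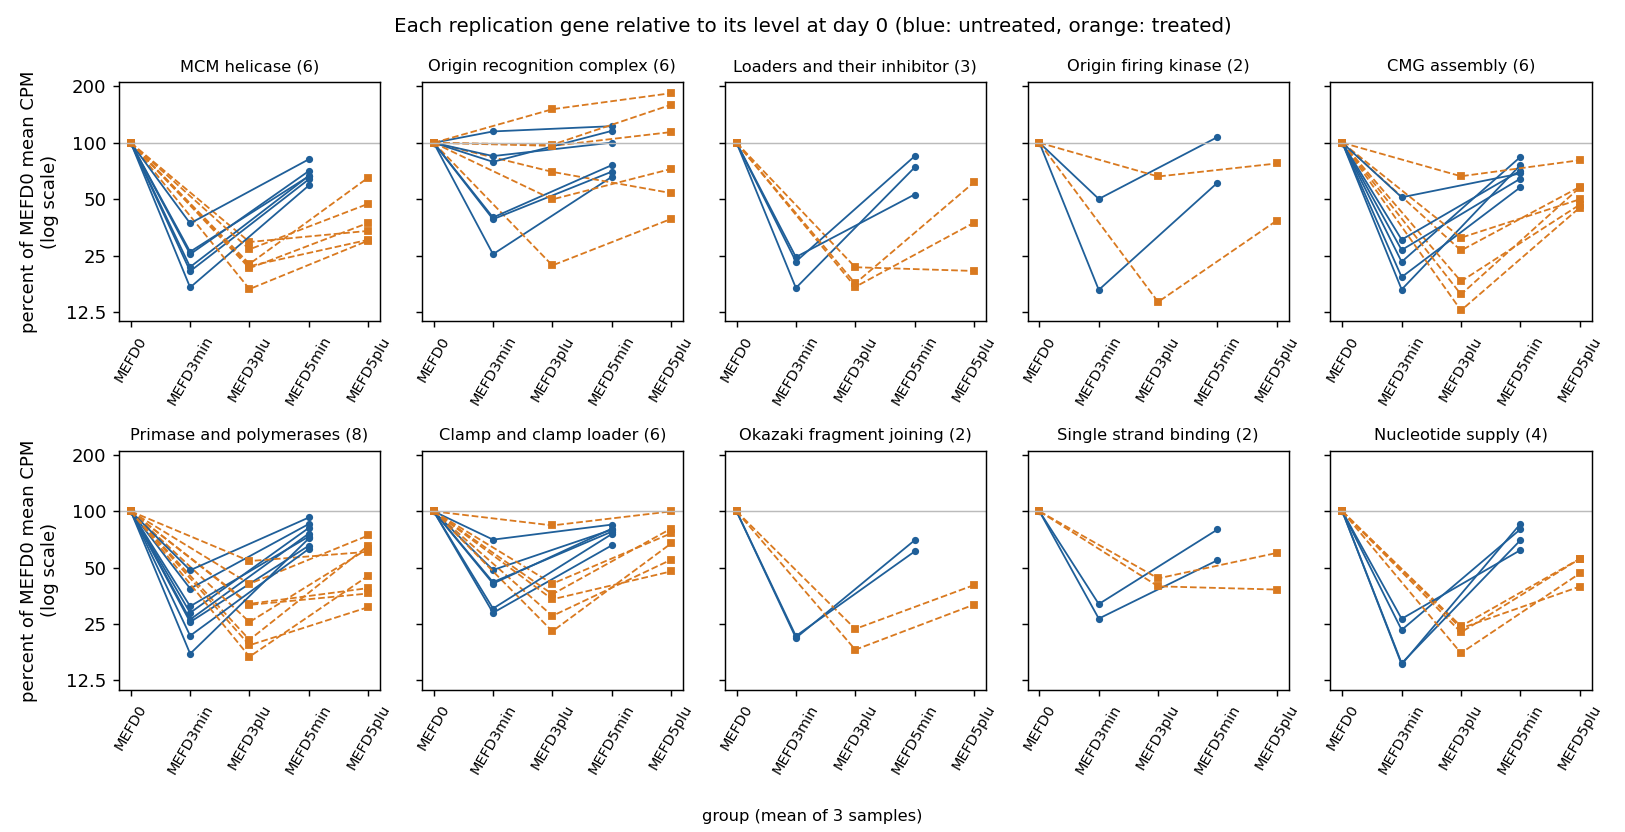
Mean CPM of each replication gene as percent of its MEFD0 mean (y axis, log scale) in the 5 groups (x axis), 1 panel per role with its number of genes; blue solid lines join untreated and orange dashed lines treated groups. Most lines drop to 12.7 to 50% on day 3 and rise by day 5, with orange ends below blue ones, and lines above 100% on day 5 are mainly ORC subunits.

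Other genes of S phase were counted in the same way. Of 48 further replication genes (further polymerase subunits, fork protection and chromatin assembly factors and nucleotide enzymes among them), 16 were higher and 7 lower in MEFD3plu/MEFD3min, and 6 were higher and 31 lower in MEFD5plu/MEFD5min, with medians of 0.07 and -0.43. As shares these are 33.3% higher and 14.6% lower on day 3, against 28% and 28% of all genes tested, and 12.5% higher and 64.6% lower on day 5, against 26.3% and 24.2%. Among 11 S phase regulators, 5 were higher (45.5%) and 2 lower (18.2%) on day 3, and 10 were lower (90.9%) on day 5 and none higher. Ccne1, the G1/S cyclin E1, had a log2 difference of 1.21 (adjusted p = 1.04e-06) on day 3 and -0.85 (adjusted p = 5.26e-05) on day 5. E2f2 had 1.24 (adjusted p = 6.95e-06) and -0.79 (adjusted p = 0.000489), and E2f1 had -0.59 (adjusted p = 3.3e-06) and -0.38 (adjusted p = 0.000449). E2f7, a repressor of the E2F family, had 0.01 (adjusted p = 0.975) and -1.65 (adjusted p = 1.1e-07). Of 15 mitotic genes, none was higher and 5 were lower on day 3, a share of 33.3% against 28% of all genes tested, and 11 were lower on day 5 and none higher, 73.3% against 24.2%. All 15 fell from MEFD0 to MEFD3min and rose from MEFD3min to MEFD5min, where 28.6% of all genes tested were lower and 21.3% higher.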

How the data were processed

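The authors deposited raw counts per Ensembl gene for each of the 15 samples, on GRCm38/mm10, and the submitters' notes name TopHat2 2.1.0, HTSeq and DESeq2. The labels name an unstranded TruSeq kit and the methods a stranded one. The strand setting, annotation release and handling of reads with several matches are not given in the sources used here.

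Gene IDs were matched to GENCODE M21, where 46091 had a symbol. The 15997 genes passing filterByExpr were scaled by TMM and fitted over all 15 samples without covariates by edgeR 4.0.16 (R 4.3.3), whose quasi-likelihood tests were tested on simulated data. CPM use the TMM library sizes and RPKM the exon length of the annotation. Depth limits precision mainly for genes of a few CPM, and promoter intervals are exact binomial ones.

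Genes to describe more fully were picked by rule. They were the 4 widest calls each way on day 3, on day 5 and in the interaction, 2 each way in the other comparisons, and the most abundant gene of a role with none. Of these, Rpa2, Gins1, Orc5, Rfc1, Tk1 and Mcm10 are not given sample by sample. Orc2, Gins2, Rfc3 and Dbf4 are so given for some groups only, as is Cdc7, which is outside the rule.  The members, lists and rule were chosen with earlier results of these data known. Same-numbered samples deviated together in MEFD3min and MEFD3plu (r = 0.244, 0.500 and 0.632 over genes), MEFD0 and MEFD3min (0.162, 0.364 and 0.472) and MEFD0 and MEFD3plu (0.247, 0.209 and 0.325), so the replicate numbers of the labels were taken to pair these samples. The main fit does not use this pairing, so the SE and adjusted p given for these comparisons ignore it unless the block is named. Alternatives were DESeq2 1.42.0, its size factors, total counts alone, no filter, at least 10 counts in every sample, only the samples compared, the replicate block and each sample left out.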

Additional observations from a re-analysis of the deposited data

Results flagged for a closer look

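The treatment effect differed between day 3 and day 5 in 29 of the 45 genes by the interaction term of the fit, at an adjusted p under 0.05 over all genes (48.5% of all genes tested passed it). Values are the day 3 log2 difference minus the day 5 log2 difference. For the MCM helicase they were 1.14 for Mcm2, 1.16 for Mcm3, 0.81 for Mcm4, 0.95 for Mcm5, -0.39 for Mcm6 and 0.67 for Mcm7. For ORC they were 0.54 for Orc1 and 1.22 for Orc2, and for the loaders 0.99 for Cdc6 and 1.17 for Cdt1. For the origin firing kinase they were 0.86 for Cdc7 and 0.46 for Dbf4. Genes that assemble CMG had 0.85 for Mcm10, 0.74 for Cdc45, -0.67 for Gins2 and 0.58 for Gins3. Primase and polymerase genes had 1.07 for Pola2, 1.03 for Pold1, 0.77 for Pold2 and 1.37 for Pole, and the clamp loader -0.66 for Rfc3 and 0.83 for Rfc5. The joining enzymes had 0.95 for Fen1 and 0.70 for Lig1, the single strand binding genes 1.09 for Rpa1 and 0.87 for Rpa2, and nucleotide supply 0.59 for Rrm1, 1.75 for Rrm2 and 0.77 for Tk1. In 6 of these genes, Orc2, Cdc7, Pola2, Rpa1, Rpa2 and Rrm2, the difference was called on both days and changed sign. This pattern was not counted over all genes tested. The call of Orc1 was lost without MEFD3min replicate 4, MEFD3plu replicate 1 or MEFD5plu replicate 1 (adjusted p up to 0.0698), and that of Fen1 without MEFD3min replicate 3, MEFD3plu replicate 1 or MEFD5plu replicate 3 (adjusted p up to 0.066).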

How the results depend on the processing

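Of 110 recounts of the called genes under alternatives, 109 stayed within 1.5 times the main count. The exception was MEFD3plu/MEFD3min with only the samples compared, where 13 genes were called in place of 20, 9 higher and 4 lower, and the cause was not tested. Leaving out each sample in turn gave 16 to 24 called genes in MEFD3plu/MEFD3min, 30 to 33 in MEFD5plu/MEFD5min, 27 to 31 in the interaction, 42 to 44 in MEFD3min/MEFD0, 43 in MEFD3plu/MEFD0, 32 to 36 in MEFD5min/MEFD0, 43 to 44 in MEFD5min/MEFD3min and 37 to 40 in MEFD5plu/MEFD3plu. Of 1980 values of the 18 genes named by rule, 1916 kept direction and call, 46 lost the call, 18 gained it and none reversed. Scaling by total counts alone moved the median of all genes from 0.01 to -0.15 in MEFD5plu/MEFD5min, from -0.03 to 0.15 in the interaction and from 0.04 to -0.08 in MEFD3min/MEFD0. The E2F octamer share was 35.1% with only the 250 bases before the start, against 51.4%.

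A replicate block in the fit gave 22 called genes in MEFD3plu/MEFD3min, 38 in MEFD5plu/MEFD5min, 30 in the interaction, 45 in MEFD3min/MEFD0, 43 in MEFD3plu/MEFD0, 40 in MEFD5min/MEFD0, 44 in MEFD5min/MEFD3min and 41 in MEFD5plu/MEFD3plu. Where the numbers paired the samples, the block added Orc5 and Tyms in MEFD3plu/MEFD3min and Orc3 and Orc4 (-0.24, adjusted p = 0.0201) in MEFD3min/MEFD0, and changed no other call. Between MEFD5min and MEFD5plu the samples share only a number (r = 0.147, -0.0373 and 0.101), and 3 of 6 samples were closest to their own number. Gins1 and Fen1, of a few CPM at day 3, have the least depth behind their values, and Fen1 counts may also hold antisense reads or lack reads of its own.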

Other observations

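Of the 48 further replication genes, 12 were higher with treatment on day 3 and lower on day 5, and these were Asf1b, Atad5, Clspn, Dna2, Donson, Mcmbp, Mms22l, Nasp, Recql4, Ticrr, Timeless and Topbp1. The other 36 took other courses. How many of all genes tested were higher on day 3 and lower on day 5 was not counted. Tonsl, the partner of Mms22l, had -0.01 ± 0.09 (SE; adjusted p = 0.948) on day 3 and 0.30 ± 0.08 (SE; adjusted p = 0.00657) on day 5, and Exo1, a nuclease of DNA repair, had 0.01 ± 0.12 (SE; adjusted p = 0.941) and -0.96 ± 0.11 (SE; adjusted p = 1.84e-06), as log2 differences. The genes given with values here were chosen after their values were seen. Dna2, a nuclease and helicase of flap and fork processing, went from 2.45 ± 0.298 CPM (SD, n = 3) in MEFD3min to 5.21 ± 0.678 in MEFD3plu, and from 10.8 ± 0.742 in MEFD5min to 4.69 ± 0.831 in MEFD5plu. Its log2 differences were 1.08 ± 0.17 (SE; adjusted p = 4.26e-05) and -1.20 ± 0.16 (SE; adjusted p = 8.17e-06). Clspn, the adaptor of the fork checkpoint, had 0.63 ± 0.10 (SE; adjusted p = 3.67e-05) and -0.98 ± 0.09 (SE; adjusted p = 1.91e-07). Ticrr, which brings Cdc45 to origins, had 0.51 ± 0.12 (SE; adjusted p = 0.00196) and -1.19 ± 0.11 (SE; adjusted p = 2.36e-07), and Mms22l, a fork repair gene, had 0.67 ± 0.12 (SE; adjusted p = 9.18e-05) and -0.83 ± 0.11 (SE; adjusted p = 8.67e-06).

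Samhd1, which breaks down deoxynucleotides and is known from resting cells, differed with treatment in the opposite direction to Rrm2 on both days. From day 3 to day 5 the means of both genes rose, treated and untreated. Samhd1 stood at 57.7 ± 5.34 CPM in MEFD0. On day 3 it held 62.8 ± 1.30 CPM untreated and 41.7 ± 2.69 treated, and on day 5 71.2 ± 7.30 and 115 ± 9.71. Its log2 difference was -0.59 ± 0.09 (SE; adjusted p = 4.12e-05) on day 3 and 0.69 ± 0.09 (SE; adjusted p = 1.03e-05) on day 5. Rrm2b, the subunit of ribonucleotide reductase that resting cells use, was not called on day 3 (0.14 ± 0.09 (SE; adjusted p = 0.209)) and was higher on day 5 (0.29 ± 0.09 (SE; adjusted p = 0.0123)).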
